A study of Mus musculus with 2 samples.

Results

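CHD proteins are chromodomain helicase DNA-binding proteins, ATPases that slide, space or evict nucleosomes, and the 9 mouse genes that encode them, Chd1 to Chd9, were examined for chromatin accessibility in cerebellum. The members were chosen by name from the 21826 protein-coding genes of the GENCODE M21 annotation on the mouse assembly mm10. They fell into subfamily I (Chd1 and Chd2), subfamily II (Chd3, Chd4 and Chd5) and subfamily III (Chd6, Chd7, Chd8 and Chd9). Accessibility was measured by DNase-seq, in which the nuclease DNase I cuts open DNA in isolated nuclei and sequencing maps the cuts. The tissue came from 2 male mice of strain B6CASTF1/J, a first-generation cross of C57BL/6J with CAST, aged 36 days. No treatment is named in the labels, and both animals belonged to 1 group with 1 library each. They are labelled biological replicates 1 and 2 but carry the same donor entry, so counting them as 2 animals rests on the replicate label. They are named here replicate 1 and replicate 2, and the design allowed no test between groups.

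Chromatin remodellers of the CHD family carry paired chromodomains ahead of a SNF2-type ATPase. The chromodomains of Chd1 bind methylated histone H3 at active genes, and Chd2 is its closest relative. Chd3, Chd4 and Chd5 carry PHD fingers and serve as ATPases of NuRD, a complex that joins nucleosome remodelling to histone deacetylation. Chd7 and Chd8 are best known in the developing brain: heterozygous loss of human CHD7 causes CHARGE syndrome, and CHD8 is a frequently mutated gene in autism. In the cerebellum, Chd4 and Chd7 act in granule neurons and their progenitors, the most numerous neuron lineage of this tissue.

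The deposited height of a peak, a signal whose scaling is not stated, was the measure of accessibility. Within each animal it was ranked against the other peaks of the same list, because heights of different libraries may be scaled differently. The promoter window of a gene covered 1000 bp on both sides of each of its annotated protein-coding starts. The territory was the gene body with 10000 bp on both sides. Replicate 1 had 140127 peaks and 342409 footprints, which are narrow protected spots within open DNA, and replicate 2 had 114404 peaks and 262603 footprints. The sequencing depth was unknown. The tissue label was checked against markers by promoter peaks: 8 of 8 granule cell genes had one in both animals, as had 4 of 6 Purkinje cell genes and 4 of 4 astrocyte and Bergmann glia genes. The Purkinje genes Pcp2 and Ppp1r17 had none. Oligodendrocyte genes had a promoter peak for 3 of 4 in replicate 1 and 2 of 4 in replicate 2, and forebrain neuron genes for 3 of 5 and 2 of 5. None of the 4 microglia genes and none of the 4 liver genes had one in either animal. The samples were mixed tissue, so a low height from few cells with an open site and one from weaker opening in many cells cannot be told apart.

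The sequences of 6 of the highest promoter peaks are shown first, since the motif matches below refer to them. They are the C57BL/6J reference from RefSeq GRCm38.p6 (mm10), 5′ to 3′ on the strand of the gene, with annotated exon bases left out. Capitals mark bases inside footprints of both animals. For Chd1 the stretch is chr17:15704501-15704700 on the plus strand, for Chd2 chr7:73537761-73538012 on the minus strand, for Chd3 chr11:69365041-69365240 on the minus strand and for Chd5 chr4:152338561-152338650 on the plus strand. For Chd6 it is chr2:161109076-161109280 on the minus strand and for Chd8 chr14:52257781-52258060 on the minus strand.
Chd1: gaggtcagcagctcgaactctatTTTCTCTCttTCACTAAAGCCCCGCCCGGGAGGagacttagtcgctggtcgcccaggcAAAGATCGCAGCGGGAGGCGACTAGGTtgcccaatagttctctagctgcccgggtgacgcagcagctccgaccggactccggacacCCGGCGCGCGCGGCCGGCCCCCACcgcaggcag
Chd2: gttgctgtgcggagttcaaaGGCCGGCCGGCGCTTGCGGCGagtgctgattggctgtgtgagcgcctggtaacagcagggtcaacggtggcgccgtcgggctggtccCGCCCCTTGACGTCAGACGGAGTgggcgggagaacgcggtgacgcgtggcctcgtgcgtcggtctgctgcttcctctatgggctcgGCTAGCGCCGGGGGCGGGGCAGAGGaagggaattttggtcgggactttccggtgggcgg
Chd3: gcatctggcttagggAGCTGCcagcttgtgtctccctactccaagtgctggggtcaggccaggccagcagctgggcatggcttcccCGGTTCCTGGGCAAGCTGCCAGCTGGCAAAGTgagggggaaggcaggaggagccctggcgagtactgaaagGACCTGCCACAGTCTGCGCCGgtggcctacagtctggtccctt
Chd5: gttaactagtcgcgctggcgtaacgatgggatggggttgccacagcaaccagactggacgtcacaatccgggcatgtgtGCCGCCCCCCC
Chd6: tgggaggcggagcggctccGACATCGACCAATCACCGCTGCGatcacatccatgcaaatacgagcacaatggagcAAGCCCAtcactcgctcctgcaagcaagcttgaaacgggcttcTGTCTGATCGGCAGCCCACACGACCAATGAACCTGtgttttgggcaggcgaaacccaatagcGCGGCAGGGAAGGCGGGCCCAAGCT
Chd8: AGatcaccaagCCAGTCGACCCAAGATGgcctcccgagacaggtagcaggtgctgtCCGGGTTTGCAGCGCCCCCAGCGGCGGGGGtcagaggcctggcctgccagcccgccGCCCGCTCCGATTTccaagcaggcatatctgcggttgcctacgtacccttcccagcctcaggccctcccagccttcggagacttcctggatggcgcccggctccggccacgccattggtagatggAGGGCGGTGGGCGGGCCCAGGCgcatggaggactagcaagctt

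Chd8 and Chd9 each had a further high promoter peak at an internal start, and these are shown because they approach the height of the first. The Chd8 stretch is chr14:52244510-52244640 on the minus strand and the Chd9 stretch is chr8:90908417-90908540 on the plus strand. The highest promoter peaks of Chd4 and Chd9 lay largely or wholly in exons and are not printed.
Chd8 internal start: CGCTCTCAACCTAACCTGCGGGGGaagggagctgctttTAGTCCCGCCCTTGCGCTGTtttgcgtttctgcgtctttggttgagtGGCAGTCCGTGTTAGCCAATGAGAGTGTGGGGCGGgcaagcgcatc
Chd9 internal start: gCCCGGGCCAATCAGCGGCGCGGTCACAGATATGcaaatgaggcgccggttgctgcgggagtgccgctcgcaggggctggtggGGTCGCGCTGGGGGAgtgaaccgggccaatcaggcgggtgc

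All 9 members had a promoter peak in both animals. Among all protein-coding genes, 67% had one in replicate 1, 63.5% in replicate 2 and 62.9% in both. This share rose with the CpG dinucleotides of the promoter windows. Of 5 equal groups of genes by CpG, the group of Chd2 and Chd8 had shares of 46.6% and 41.0%. The groups of the other members had shares of 85.3% to 96.9%. The median height of the members' highest promoter peaks was 18.2 in replicate 1, against 9.10 over the 14624 genes with a promoter peak there. In replicate 2 it was 11.3 against 6.65 over 13867 genes. Over all annotated starts the members ranged widely: Chd2 stood at percentile 99.1 ± 0.55 (SD, n = 2) of genes with a promoter peak, and Chd5 at percentile 19.2 ± 3.52 (SD, n = 2). The median member stood at percentile 79.7 in replicate 1 and 75.6 in replicate 2.

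**Figure D1:**
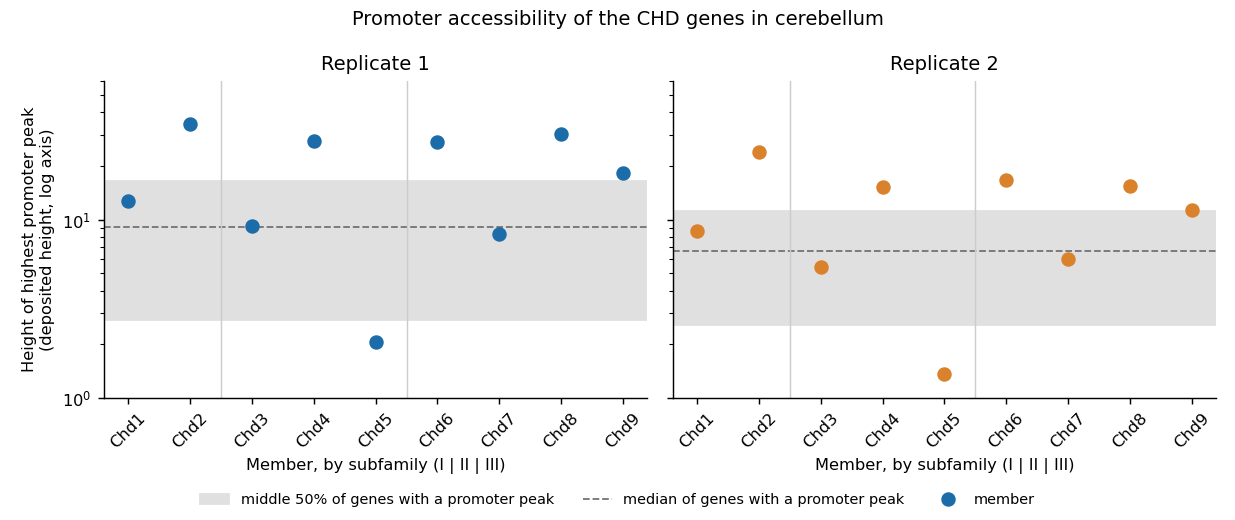
Height of the highest promoter peak of each CHD gene (points, log axis, deposited height) in each animal, with the middle 50% of all genes with a promoter peak as a grey band and their median as a dashed line. Over all annotated starts, as plotted, Chd2, Chd4, Chd6, Chd8 and Chd9 lie above the band in both animals and Chd5 is the lowest; with starts of basic transcripts alone, Chd2 and Chd3 would lie below Chd5.

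In subfamily I, Chd1 (ENSMUSG00000023852.14, chr17:15704967-15772610, plus strand) had its highest promoter peak with the midpoint at -366 bp from the outermost start, and a height of 12.7 in replicate 1 and 8.67 in replicate 2. These heights stood at percentiles 63.1 and 61.9 of genes with a promoter peak. A further peak, centred at -26 bp, had 9.98 and 6.27. The remaining Chd1 promoter peaks were low, at 0.488 and 0.553 for a shared one and 1.44 for one in replicate 1 alone.

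Chd2 (ENSMUSG00000078671.11, chr7:73426638-73541830, minus strand) had the highest promoter peak of the family over all annotated starts, 34.4 in replicate 1 and 24.0 in replicate 2. The peak had the same boundaries in both animals, chr7:73537761-73538020. It did not lie at the outermost start of Chd2. Its midpoint was at -270 bp from an internal start 4125 bp into the gene, whose transcript is annotated with 536 coding bases and is not of the basic set. At the outermost start, from which the transcript with 5481 coding bases begins, the highest peak reached only 1.59 and 1.23. The non-coding gene Gm44686 starts on the opposite strand 392 bp from the internal start, and its first bases lie in the same peak, so the peak cannot be assigned to Chd2 or Gm44686 alone.

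In subfamily II, Chd4 (ENSMUSG00000063870.12, chr6:125095981-125130591, plus strand), the main NuRD ATPase of many tissues, had a peak over its outermost start with heights of 27.7 and 15.3, at percentiles 95.3 and 89.8. Chd3 (ENSMUSG00000018474.17, chr11:69343273-69369406, minus strand), another NuRD ATPase, reached 9.16 and 5.39, at percentiles 50.3 and 42.6. As in Chd2, the highest Chd3 peak lay at an internal start, 4627 bp into the gene, where a transcript with 5657 coding bases begins. The outermost Chd3 starts had 1.72 and 1.09. Chd5 (ENSMUSG00000005045.16, chr4:152338651-152390194, plus strand), the NuRD ATPase best known from neurons, had the lowest value of the family over all annotated starts, 2.04 in replicate 1 and 1.36 in replicate 2. Chd4 was above Chd5 in both animals. Over all starts Chd3 lay between them, but with starts of basic transcripts only, Chd3 at 1.72 and 1.09 and Chd2 at 1.59 and 1.23 lay below Chd5 in both animals.

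The low Chd5 peak stood on a promoter rich in CpG dinucleotides. Its promoter windows held 7.47 CpG per 100 bp, the highest value among the members and in the most CpG-rich of 5 equal groups of protein-coding genes. The median height of genes with a promoter peak in that group was 12.1 in replicate 1 and 8.26 in replicate 2, so Chd5 stood at percentiles 15.0 and 11.5 within it. Chd1 and Chd7 were in the same group. Within it, Chd1, with 6.04 per 100 bp, stood at percentiles 51.9 and 52.5, and Chd7, with 5.87 per 100 bp, at percentiles 36.9 and 37.7. Chd2 and Chd8 had lower means over all their windows, 1.57 and 1.92 CpG per 100 bp. Among genes of their CpG group, Chd2 stood at percentile 99.9 in both animals and Chd8 at percentiles 99.5 and 97.7. The windows of Chd2 and Chd8 cover several internal starts that held no peak, and the CpG value is a mean over all of them. Their highest peaks were not poor in CpG. The printed stretches held 29 CpG in 252 bp for Chd2 and 20 in 280 bp for Chd8, against 7 in 90 bp for Chd5. The percentiles of Chd2 and Chd8 within their CpG group therefore rest on the window mean.

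In subfamily III, Chd8 (ENSMUSG00000053754.14, chr14:52198151-52257780, minus strand) reached 30.4 and 15.4 at its outermost start, percentiles 97.1 and 90.0. Chd6 (ENSMUSG00000057133.14, chr2:160946978-161109075, minus strand), a remodeller linked to the response to oxidative DNA damage, reached 27.2 and 16.7, percentiles 94.8 and 93.1. The antisense gene Gm45447 starts 389 bp from the outermost Chd6 start. The highest Chd6 promoter peak lies between these starts in both animals, so it cannot be assigned to Chd6 or Gm45447 alone. The antisense gene Gm26590 starts 434 bp from an internal Chd8 start that held no peak. Chd9 (ENSMUSG00000056608.14, chr8:90828352-91054516, plus strand) reached 18.2 and 11.3, percentiles 79.7 and 75.6. Chd7 (ENSMUSG00000041235.12, chr4:8690406-8867659, plus strand) reached 8.29 and 5.98, percentiles 46.9 and 46.2, the lowest of the subfamily in both animals.

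Between the animals, the order of the 9 heights had a Spearman correlation of 0.93 (n = 9 genes, a description over genes of the same libraries). Chd2, Chd9, Chd1 and Chd5 held the same place in both orders. Chd4, Chd6 and Chd8 changed places among themselves, at mean percentiles of 92.6 ± 3.86, 94.0 ± 1.22 and 93.6 ± 5.02 (SD, n = 2 each), so they were not separated beyond their spread. The same held for Chd7 at 46.6 ± 0.51 and Chd3 at 46.5 ± 5.46 (SD, n = 2 each).

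The choice of start mattered for the family. GENCODE lists 40 distinct protein-coding starts for the 9 genes, and 26 of them had a peak within 1000 bp in both animals. A peak was present in replicate 1 alone at 2 starts, in replicate 2 alone at 0, and in neither animal at 12. Of the 21 starts more than 1000 bp inside the gene, 7 had a peak in both animals. The starts without a peak in either animal included a Chd8 start 20208 bp inside the gene, whose transcript carries 7746 coding bases, as does the outermost one.

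**Figure D2:**
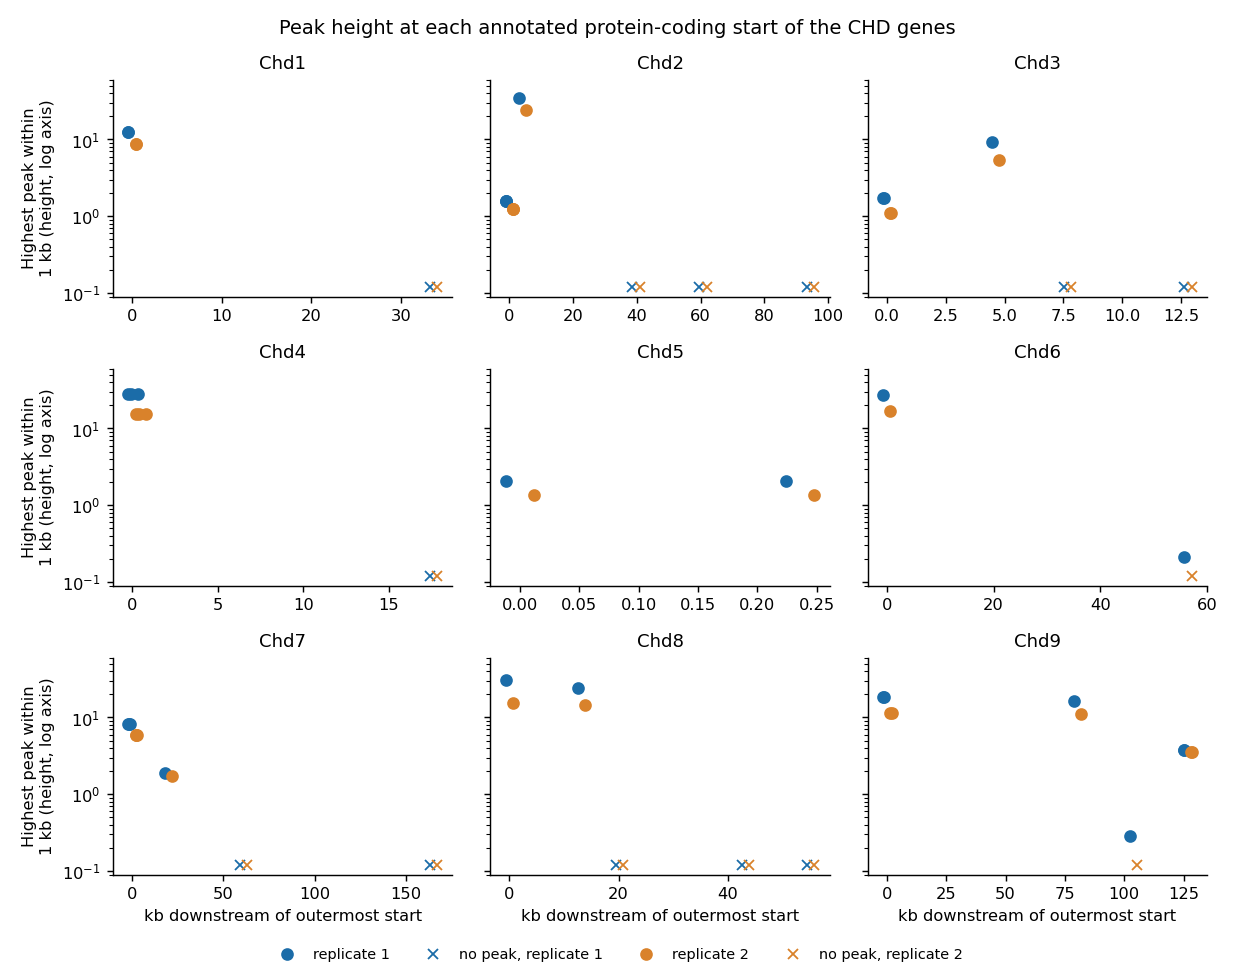
Height of the highest peak within 1000 bp of each annotated protein-coding start (log axis) against the distance of the start from the outermost start of the gene; points are shifted slightly sideways by animal, and crosses at the bottom mark starts without a peak. The highest point of Chd2 and Chd3 lies at an internal start, and Chd8 and Chd9 have a further high point inside the gene.

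Chd8 and Chd9 had a high internal promoter peak as well as an outer one. In Chd8, the internal start 13271 bp downstream had 24.2 in replicate 1 and 14.7 in replicate 2, against 30.4 and 15.4 at the outermost start. Its transcript is annotated with only 67 coding bases. In Chd9, the start 80262 bp downstream, of a transcript with 1923 coding bases, had 16.5 and 11.1, against 18.2 and 11.3 at the outer starts. Gm6658, a gene model of the type TEC, starts on the opposite strand 198 bp away. That start lies within the same peak, whereas the Chd9 start lies outside it, so the peak cannot be assigned to Chd9 or Gm6658 alone. A further Chd9 start 126606 bp downstream had 3.78 and 3.53. The internal peak stood at 79.7% and 95.5% of the outer height in Chd8 and at 90.7% and 97.6% in Chd9.

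Footprints in the highest promoter peaks numbered 41 over the 9 members in replicate 1 and 40 in replicate 2. The median member had 4 in both animals, as had the median of all genes with a promoter peak. Chd7 had the most, 9 and 8, although its peak was among the lower ones. Chd2, with the highest peak, had 3 and 4. Bases in footprints made up 40.8% of the peak in replicate 1 and 36.5% in replicate 2 at the median member, against 35.5% and 32% over all genes with a promoter peak.

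Motif letters were searched on both strands within 150 bp of the midpoint of each highest promoter peak, a window of 301 bp. The CRE string TGACGTCA, known as the binding site of CREB and ATF proteins, occurred in Chd2. Its share over all genes with a promoter peak was 3.73% in replicate 1 and 3.91% in replicate 2. In the Chd2 sequence it spans bases 115 to 122, counted from 1 at the 5′ end of the printed stretch, and all 8 bases lie in footprints of both animals.

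The SP/KLF string GGGCGGGG, bound by zinc finger factors of GC-rich promoters, occurred in Chd1, Chd2 and Chd4, 3 of 9 members, against 34.3% and 34.2% of all genes with a promoter peak. In each of the 3 the match centre lay in a footprint in both animals. For NFY, the string searched was CCAATCA, or with its last bases changed CCAATCG, or the variant CCAATGA, or the variant CCAATGG. It occurred in Chd2, Chd4, Chd6 and Chd8, 4 of 9 members, against 23.0% and 24.4%. NFY is the trimeric CCAAT-box factor. The Chd4 match lay in a footprint in both animals, the Chd8 match in replicate 2 alone and the Chd2 match in neither. The Chd6 promoter had 2 copies, at bases 28 to 34 and 142 to 148 of its printed stretch, both wholly inside footprints of both animals. The internal promoter peaks of Chd8 and Chd9, outside this count, also carried NFY strings in footprints, at bases 101 to 107 and 8 to 14. The Chd9 stretch had a further copy at bases 109 to 115 that was in no shared footprint.

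The 301 bp around the highest promoter peak of Chd3 and of Chd5 held none of the 17 motifs searched. The NRF1 string GCGCATGCG, the ETS string CCGGAAGT and the YY1 string AAGATGGCG were found at none of the members, against 3.90%, 7.89% and 3.59% of all genes with a promoter peak in replicate 1. The NeuroD/Atoh1 string CAGATGG, an E-box of granule lineage factors, occurred in Chd9 and the ZIC string CAGCAGG in Chd2, each outside footprints. The other strings searched at promoters, with no match at a member, were TCACGTG (USF E-box), TGANTCA (AP-1), GTTGCCATG (RFX), ACTACAATT (ZNF143), TAGGTCA (ROR), TTCAGCACC (REST) and the longer consensus sequences of CTCF, NFI and MEF2. A match is a description of letters, not of bound protein.

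Outside promoter windows, the territories held 94 distal peaks in replicate 1 and 73 in replicate 2. In the authors' smaller peak list they held 62 and 41. The median member had 10 and 5, against 2 and 1 over all protein-coding genes. All 9 members were long genes, in the 2 longest of 5 equal groups by gene length. The median gene of the longest group had 7 and 6 distal peaks, and that of the next group had 2 in each animal. Per 100 kb of territory, the median member had 7.72 and 5.18, against 3.98 and 3.27 over all protein-coding genes. In the longest group the median gene had 4.57 and 3.95 per 100 kb. By place, 59 of the 94 lay in introns, 11 in coding exons, 14 in the downstream and 9 in the upstream flank, and 1 in an exon of a non-coding transcript. In replicate 2, 46 of 73 lay in introns, 11 in coding exons, 10 downstream and 6 upstream. Of the distal peaks in replicate 1, 62.8% overlapped a peak of replicate 2, against 63.6% over all distal peaks. In replicate 2, 80.8% overlapped a peak of replicate 1, against 79.9%.

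**Figure D3:**
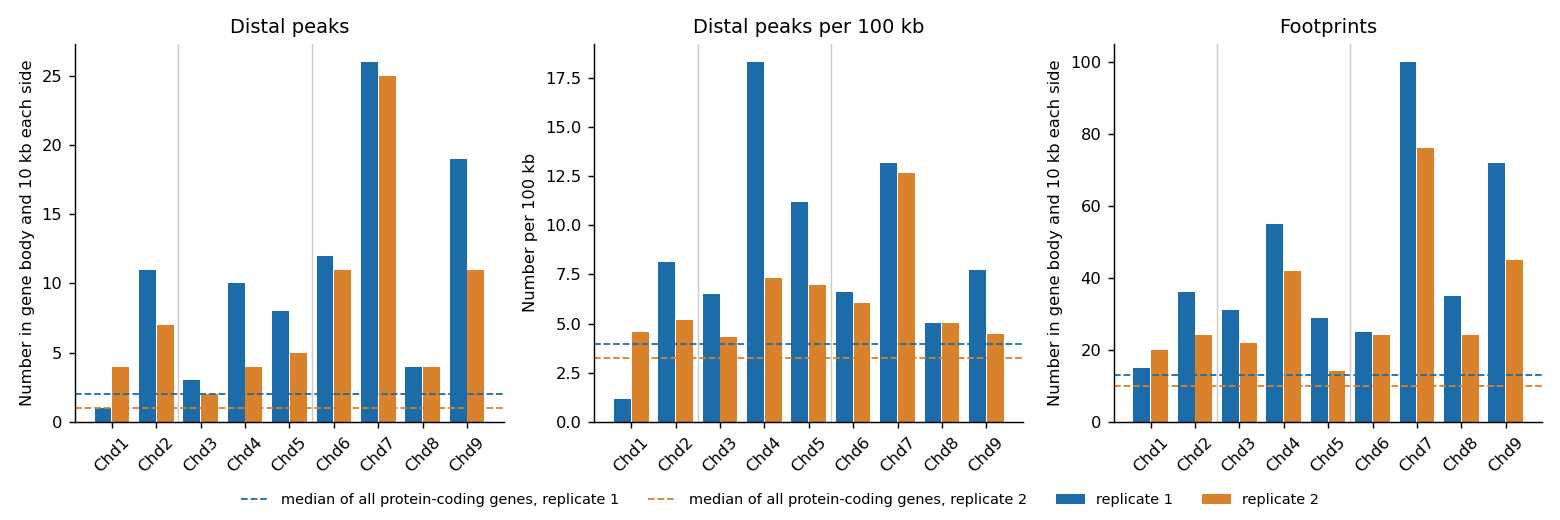
Number of distal peaks, distal peaks per 100 kb and number of footprints in the territory of each CHD gene (bars, 1 per animal), with the median over all protein-coding genes of each animal as a dashed line. Chd7 has the most distal peaks and footprints in both animals, and Chd1 has 1 distal peak in replicate 1 and 4 in replicate 2. The numbers of distal peaks and footprints are not scaled to gene length, and the CHD genes are long.

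Chd7 had the most distal peaks, 26 in replicate 1 and 25 in replicate 2. Its density was 13.2 and 12.7 per 100 kb, percentiles 90.9 and 95.1 among genes of its length group, 1 of 5 equal groups by gene length. Of its peaks, 18 in replicate 1 and 19 in replicate 2 overlapped a peak of the other animal. The highest lay in an intron, with heights of 14.7 and 13.0. This intronic peak was higher than the Chd7 promoter peak, at 8.29 and 5.98, in both animals. Among all peaks of its own list it stood at percentiles 96.5 and 97.8.

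Further high Chd7 elements, named after their values were seen, lay at chr4:8684641-8684800 upstream, with 8.58 and 8.85, and at chr4:8876581-8876800 downstream of the gene, with 7.91 and 6.61. An intronic element at chr4:8850521-8850760 had 7.93 and 5.77. The upstream and the downstream element exceeded the Chd7 promoter height in replicate 2, and the upstream one did so in both animals. The NeuroD/Atoh1 string CAGATGG lay in a footprint of both animals at each of these 3 elements.

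Distal peaks were searched in the same 301 bp window around the peak midpoint, so a match can lie outside a narrower peak. Over all members, CAGATGG occurred in the window of 19 of 94 distal peaks in replicate 1, or 20.2%, against 16.8% of all distal peaks. In replicate 2 it was 20 of 73, or 27.4%, against 19.3%. The match centre lay in a footprint in 7 and 6 of these. Chd7 alone supplied most of the peaks with CAGATGG in both animals, so the pooled share does not describe the other members. The AP-1 string TGANTCA occurred in the windows of 13 and 15 distal peaks, 13.8% and 20.5%, against 9.67% and 10.6%. Some of these CAGATGG and AP-1 matches lay outside the peak itself, and the AP-1 match centre lay in a footprint in 1 and 0. ZIC strings occurred in 14.9% and 13.7% of the windows, against 19.7% and 19.5%. CTCF matches were found in 2 distal peaks in each animal, 2.13% and 2.74%, against 4.04% and 4.99%. Each match lay in a footprint of its own animal, but only the Chd9 peak was common to both: the other was in the Chd4 territory in replicate 1 and in that of Chd1 in replicate 2, and neither of those peaks was shared. None of these shares was tested.

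**Figure D4:**
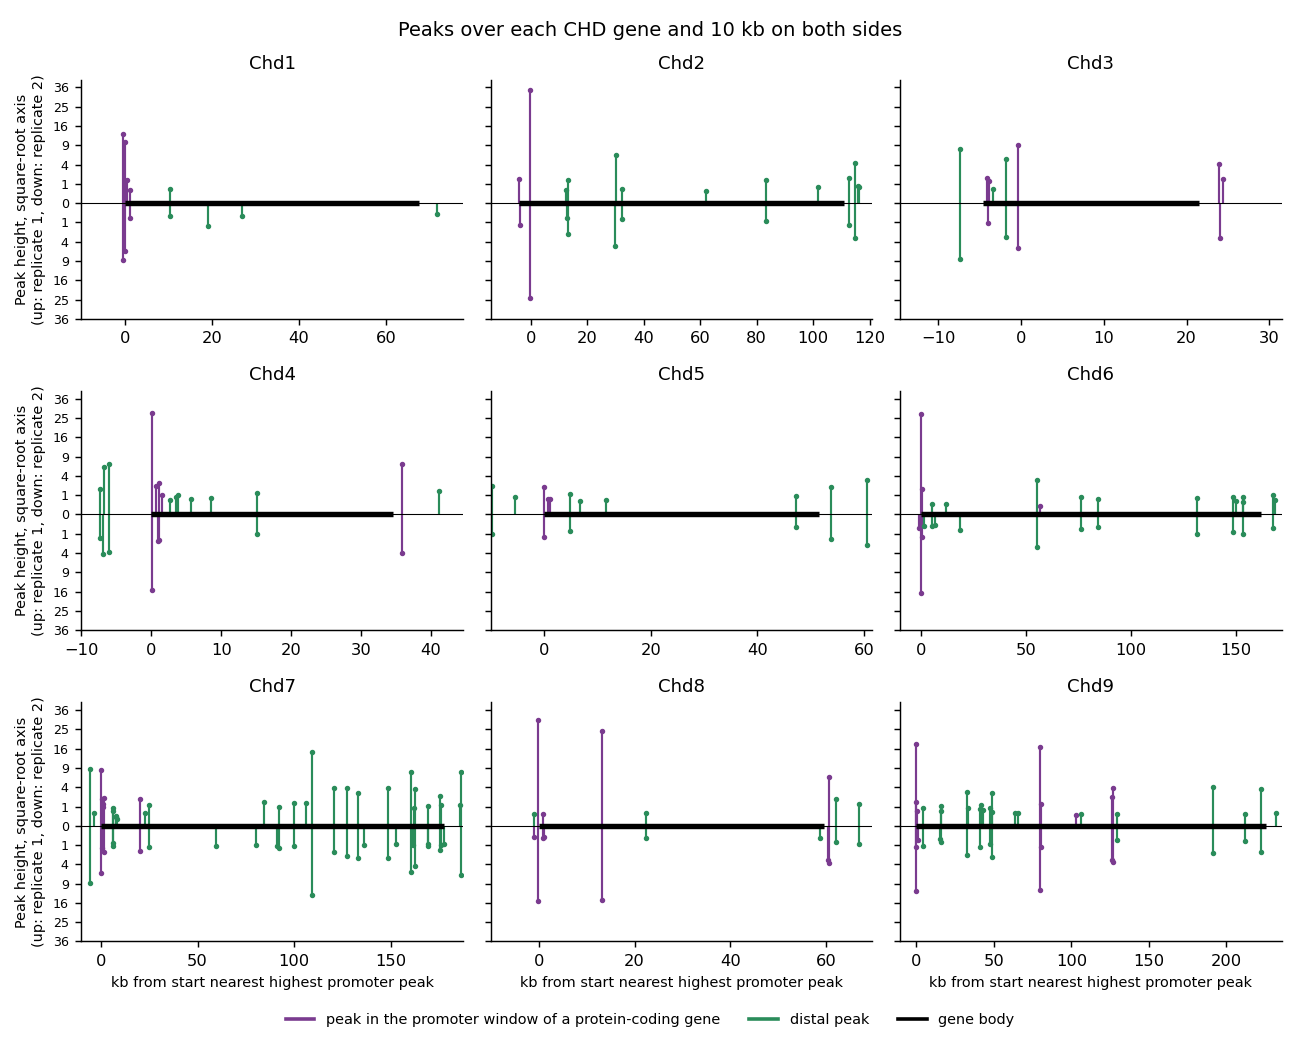
Peaks over each CHD gene body (black bar) and 10 kb on both sides, by distance from the start nearest the highest promoter peak; stem length is the deposited height on a square-root axis, upward for replicate 1 and downward for replicate 2. Chd7 has tall distal peaks along the distal part of its body, of up to 14.7, and Chd8 and Chd9 have internal promoter peaks.

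Chd9 had 19 distal peaks in replicate 1 and 11 in replicate 2, and Chd6 had 12 and 11. Both are long genes, of 226165 and 162098 bp, and within their length group their densities stood at percentiles 73.7 and 55.4 for Chd9 and 66.8 and 69.6 for Chd6. Taken by the lower of its 2 percentiles, the highest shared distal peak of each was modest. It had 2.91 and 2.64 in an intron of Chd9 (chr8:90877141-90877440) and 3.26 and 2.84 in an intron of Chd6 (chr2:161053901-161054060). By height in replicate 1, the highest shared Chd9 peak was at chr8:91019881-91020040, with 3.96 and 2.04. Chd8 had 4 distal peaks in each animal. By the lower percentile, the highest shared one (chr14:52190801-52190980, with 1.31 and 0.869) lay inside the neighbouring gene Supt16, which encodes a subunit of the histone chaperone FACT. Another shared peak inside Supt16 had 1.88 and 0.711. The Supt16 promoter, with 6.33 and 3.74, lay in the Chd8 territory and was not counted as distal. In Chd8 both promoter peaks stood far above every shared distal peak, whereas in Chd7 a distal peak was the highest.

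Chd4 had 10 distal peaks in replicate 1 and 4 in replicate 2, or 18.3 and 7.32 per 100 kb, the largest difference in density between the animals in the family. All 4 in replicate 2 overlapped a peak of replicate 1. A shared upstream peak at chr6:125089861-125090040 had 6.97 and 3.80. By the lower percentile, the highest shared one was also upstream, centred at -6830 bp from the Chd4 start, at chr6:125088981-125089320. It had 6.09 and 4.21, and its 9 and 8 footprints were the most in any shared distal peak of a member. Its first 300 bp, chr6:125088981-125089280 on the plus strand, are shown because a short string recurs in them.
Chd4 upstream: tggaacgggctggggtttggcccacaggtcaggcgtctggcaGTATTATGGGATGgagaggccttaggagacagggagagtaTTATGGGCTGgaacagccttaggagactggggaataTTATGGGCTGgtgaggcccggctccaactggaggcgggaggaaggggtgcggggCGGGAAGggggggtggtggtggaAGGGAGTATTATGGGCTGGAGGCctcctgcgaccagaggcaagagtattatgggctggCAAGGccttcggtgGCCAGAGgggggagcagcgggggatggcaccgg
The string ATTATGGG occurred 5 times, and in 4 of these copies 7 or 8 of the bases lay in footprints of both animals. The promoter of Nop2, a ribosomal RNA methyltransferase gene downstream of Chd4, had 6.92 and 3.95, and the microRNA gene Mir7045 starts 455 bp from the nearest annotated Chd4 start.

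Chd2 had 11 distal peaks in replicate 1 and 7 in replicate 2, with the highest shared one in an intron (chr7:73507561-73507720; 6.16 and 4.84). Both values were above those at the outermost Chd2 start, 1.59 and 1.23. Chd5 had 8 and 5, and its highest shared one (chr4:152399041-152399200; 3.16 and 2.58) lay downstream, inside Kcnab2. That peak was higher than the Chd5 promoter peak, at 2.04 and 1.36, in both animals. Chd3 had 3 and 2, the highest centred at -7412 bp from the start nearest its highest promoter peak (chr11:69372101-69372280; 7.90 and 8.37). The latter exceeded the Chd3 promoter peak in replicate 2, at 5.39, but not in replicate 1, at 9.16. The promoter of Rnf227 in the Chd3 territory had 4.14 and 3.22. Chd1 had 1 and 4, of which 1 was shared, an intronic peak at chr17:15715341-15715500 with 0.531 and 0.444.

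Footprints in the territories numbered 398 in replicate 1 and 291 in replicate 2. Chd7 had the most, 100 and 76, followed by Chd9 with 72 and 45 and Chd4 with 55 and 42. Chd1 had 15 in replicate 1, the lowest of the family, while in replicate 2 Chd5 was lowest with 14. The median member had 35 and 24, against 13 and 10 over all protein-coding genes.

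Genes of related lists had promoter peaks in both animals as well: 12 of 12 other NuRD subunits, 13 of 13 other SNF2 remodelling ATPases and 9 of 9 partners of single members, against 62.9% of all protein-coding genes. That share was not matched to the lists for CpG content. The median height of the NuRD subunits was 20.03 and 12.12, of the other ATPases 14.2 and 9.75, and of the partners 9.49 and 6.34. Among NuRD subunits, the bridging-subunit gene Gatad2a with 35.8 and 23.9 and the methyl-CpG binding gene Mbd3 with 32.5 and 22.2 were highest. Mta1 with 2.607 and 1.501 and Mta3 with 3.61 and 1.99, which encode alternative metastasis-associated subunits, were lowest. Chd4, at 27.7 and 15.3, lay within the range of these subunits, and Chd5, at 2.04 and 1.36, lay below all 12 in both animals. Among the other ATPases, Ep400 with 38.0 and 23.0 and Smarca4 with 33.8 and 19.8 were highest, and Smarca1 with 0.677 and 0.484 and Atrx with 3.07 and 3.44 were lowest. Among partners, Wdr5 with 26.3 and 12.5 and Cbx3 with 19.4 and 13.0 were highest, and Supt16 with 6.33 and 3.74 and Rbbp5 with 7.68 and 4.61 were lowest.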

How the data were processed

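Accessibility was measured by DNase-seq in cerebellum of 2 animals, 1 library each. Per the deposited file descriptions, the files are on mm10 and derive from each animal's own alignments, without pooling. Which aligner and callers were run is not given in the sources used here. The peak height is a signal that the authors deposited with each peak of a larger and a smaller list, and the larger was used. The authors also deposited p-value-like false discovery rates along the genome, and merged stretches up to 0.05 were set beside the peaks. Every deposited footprint carries the same p-value type of entry, 0.01, so only positions were used.

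Reads came from an F1 hybrid and coordinates are those of the C57BL/6J reference; how CAST alleles mapped was not examined. Starts came from GENCODE M21. A promoter peak overlapped a promoter window by at least 1 bp, and a distal peak had its midpoint in a territory and overlapped no promoter window of a protein-coding gene. Peaks of both animals were shared when they overlapped by 1 bp. Footprints were assigned by midpoint. Percentiles were taken within 1 animal. Scripts used Python 3.11.15, numpy 2.4.6, pandas 2.3.3, scipy 1.17.1 and matplotlib 3.10.9 and were tested on simulated data. No statistical test was made. The sequences and motif matches of 2 Chd7 elements are not reported here.

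The members, lists and motifs were chosen with earlier results of these data known. Named were all 9 members, of each related list the 2 genes with the highest and the 2 with the lowest mean promoter height, marker genes without a promoter peak where given, for each member its highest shared distal peak by the lower percentile, and genes with a start or promoter peak as stated for neighbours. Alternatives were the smaller list, equal numbers of peaks, other windows, flanks and overlap rules, basic transcripts and leaving out each animal.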

Additional observations from a re-analysis of the deposited data

How the results depend on the processing

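Apart from leaving out an animal, of 31 alternative values for the 6 main measures, 26 stayed within 1.5 times of a count or within 1 SD of a value, and 5 did not. With the smaller peak list, the mean number of distal peaks in the territories fell from 83.5 to 51.5. With starts of basic transcripts only, the median percentile of the members' highest promoter peaks was 62.6, against 77.7. The internal starts of Chd2 and Chd3 were then left out. Chd2 fell from above the median member to below it, whereas Chd3 had been below it already. The mean promoter heights of Chd2 and Chd3 were 1.41 and 1.40, against 29.2 and 7.28, and below that of Chd5 at 1.70. A flank of 0 bp gave a mean of 226 footprints and a flank of 50000 bp gave 702, against 344.5, and the latter gave 162.5 distal peaks. All 9 members had a promoter peak in both animals under every alternative tried for that count. Leaving out an animal gave 73 to 94 distal peaks, 291 to 398 footprints in territories, 40 to 41 in the highest promoter peaks, shares of shared distal peaks of 62.8% to 80.8%, and median percentiles of 75.6 to 79.7. With n = 2 an SD is itself imprecise, and leaving out an animal always gives a value within 1 SD of the mean, so those ranges say nothing about stability. No paired analysis was possible because there was 1 group. The depth was unknown, so a start without a peak was only not detected as open in these lists. Heights were not compared between animals as levels, but the mean promoter heights given above average 2 libraries whose scaling may differ.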

Other observations

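The start of a non-coding gene lies upstream of Chd2, outside the territory used here. The gene is 1810026B05Rik (chr7:73539203-73558395, minus strand), known as Chaserr, whose transcription is known to restrain Chd2 in cis. It was chosen after the members' values were seen. Its promoter windows held 2 peaks in each animal. The highest, at chr7:73558481-73558700 in replicate 1, had a height of 32.7 there and 22.8 in replicate 2, against 34.4 and 24.0 for the highest Chd2 peak. These 2 peaks lay 20700 bp apart in replicate 1, and both stood above percentile 99 of all peaks: the one of 1810026B05Rik at 99.8 and 99.9, and the one of Chd2 at 99.9 in both animals. The gene body of 1810026B05Rik ends between the internal start of Chd2 and the outermost one, so the weak peak at the outermost Chd2 start, with 1.59 and 1.23, lies inside 1810026B05Rik.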
